A study of Mus musculus with 6 samples.

Results

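Aminoacyl-tRNA synthetases are the enzymes that join each amino acid to its tRNA, and cells keep separate sets for the cytosol and for the mitochondria. In the RNA of murine oviductal epithelial cells, 12 of 37 synthetase and scaffold genes were higher in MOEHIGH than in MOELOW cells, 1 was lower and 24 did not pass the test. These are 32.4% higher and 2.70% lower, where 24.3% of all tested genes were higher, 32.1% were lower and 56.4% were called in either direction. The largest of these differences, apart from the alanine enzyme Aars, were in Yars2, Kars, Vars2, Farsa and Cars2, whose means in MOEHIGH were 1.64 to 1.92 times those in MOELOW. Aars, Farsa, Kars and Cars2 are the 4 members on chromosome 8, where 44.6% of the other tested genes were higher. Off chromosome 8, 8 of 33 members were higher (24.2%) and 1 was lower (3.03%). The list held 38 gene symbols chosen by name: 20 cytosolic enzyme genes, 16 mitochondrial enzyme genes and the scaffold genes Aimp1 and Aimp2. Of these, 37 were found among the 22800 symbols of the tables, and all 37 passed the filter on low values. Eprs, the gene of the joint glutamate and proline enzyme, was not analysed here.

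MOEHIGH cells (passages 90, 103 and 113) were derived by continued passaging from MOELOW cells (passages 8, 9 and 10), and both belong to 1 line of untreated cells, founded from the pooled oviducts of several young adult female mice of the outbred CD1 strain. With 1 library for each passage and 3 libraries in each group, the p-values rest on variation among passages of a line and not among animals or lines. Values were FPKM, which scales fragments to transcript length and to the size of the library, so levels could be compared between genes. MOEHIGH was set against MOELOW with limma on log2(FPKM + 1) in the 11621 genes whose mean reached 0.5 FPKM, and a gene was called higher or lower at an adjusted p under 0.05. Fold changes were taken on that scale, on which low genes appear less changed than they are.

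In none of the 6 tables did the heading over the values match the passage in the sample record. It named another passage of the recorded group in 2 tables, a passage of the other group in 3 and no passage in 1, and the record was followed throughout, so each direction below rests on it. Grouped by the record, the libraries of a group were close to each other, with Pearson correlations across genes of 0.972 to 0.987 within MOEHIGH and 0.981 to 0.985 within MOELOW, against 0.835 to 0.873 between the groups (genes do not count as independent replicates here). Summed FPKM ran from 597161 to 770438 in MOEHIGH and from 624733 to 683841 in MOELOW, and the number of reads is unknown. The 6 oviductal epithelium markers summed to 1507 to 2435 FPKM in MOEHIGH and 882 to 912 FPKM in MOELOW. Of these, Krt18 was higher, and Pax8 and Krt8 were present in both groups. Ovgp1 had 0.703 to 1.01 FPKM in MOEHIGH and 0.761 to 1.09 FPKM in MOELOW and did not pass the test. The defining epithelial genes Epcam and Cdh1, however, did not exceed 0.0399 and 0.0821 FPKM in any of the 6 libraries. Without Krt18 the other 5 summed to 64.3 to 105 FPKM in MOEHIGH and 84.8 to 104 FPKM in MOELOW. Some markers of other cell types also differed between the groups, in either direction. The 3 ciliated cell markers found summed to 500.2 to 814 FPKM in MOEHIGH and 311 to 373 FPKM in MOELOW, with 2 higher (Tubb4b and Foxj1) and 1 lower (Rsph1). Tubb4b made up nearly all of that sum, and Foxj1 and Rsph1 together came to 2.29 to 3.51 FPKM in MOEHIGH and 2.35 to 4.28 FPKM in MOELOW, with Rsph1 listed at 0 in MOEHIGH. The 4 smooth muscle markers summed to 9.07 to 17.7 FPKM in MOEHIGH and to 7673 to 10910 FPKM in MOELOW, with 3 of 3 tested genes lower. Acta2 and Tagln made up most of that MOELOW sum, and Myh11, the gene not tested, did not exceed 0.591 FPKM in any library. The 6 fibroblast and stromal markers summed to 18.4 to 27.3 FPKM in MOEHIGH and 568 to 912 FPKM in MOELOW, with 4 of 5 tested genes lower. The endothelial markers summed to 0.00998 FPKM or less in MOEHIGH and to 1.87 to 3.64 FPKM in MOELOW. Kdr made up nearly all of that MOELOW sum. Pecam1 did not exceed 0.0158 FPKM in any library, and Cdh5 was listed at 0 throughout. The leukocyte markers summed to 2.63 to 3.85 FPKM in MOEHIGH and 1.91 to 2.96 FPKM in MOELOW, and these ranges overlapped. Csf1r was higher and Cd68 did not pass the test, with Cd3e listed at 0 throughout. The part of these markers in the results below was not tested, and in bulk RNA fewer cells of a type and less RNA per cell cannot be told apart.

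Each synthetase recognises its amino acid and its set of tRNAs, and spends ATP to make the charged tRNA that the ribosome uses. The enzymes fall into a pair of structural classes that arose independently, class I and class II. In mammalian cytosol a group of them (for aspartate, isoleucine, lysine, leucine, methionine, glutamine, arginine and the joint glutamate and proline enzyme) is held in a multisynthetase complex by scaffold proteins, among them Aimp1 and Aimp2. Mitochondrial enzymes are encoded in the nucleus and imported to charge the tRNAs of the mitochondrial genome. For glycine and for lysine, 1 gene (Gars and Kars) serves both compartments. When amino acids run short, the kinase Gcn2 raises the transcription factor Atf4, which in mouse cells binds near the promoters of several cytosolic synthetase genes at a sequence that contains TGATGCAA.

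The RefSeq promoters of 27 of the 37 genes (29 promoters of build GRCm38.p6, each from 250 bases before to 50 bases after the transcript start that the table uses) were searched on both strands for this sequence, because it is the shared regulatory feature for which the cytosolic genes are known. TGATGCAA was present in the promoters of 4 of 27 genes, Aars, Iars, Tars and Yars, against 0.895% of the 32851 promoters in the table. All 4 belong to cytosolic enzymes, of which 11 had a promoter in the table, and none to the 14 mitochondrial enzymes. The looser form TGATGNAA, which includes the first, added Gars (5 of 27 genes, against 3.97% of all promoters) and a second match in Aars, at base 10 after the start. A gene was counted if any of its promoters matched (2 genes had 2 promoters), whereas the shares are of single promoters. The stretches that hold the match are shown on the strand of each gene, with the match in capitals, and the capitals read TTGCATCA or TTTCATCA where it lies on the other strand.
Aars (chr8:111033710-111033757, plus strand): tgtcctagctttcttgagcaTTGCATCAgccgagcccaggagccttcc
Iars (chr13:49682117-49682164, plus strand): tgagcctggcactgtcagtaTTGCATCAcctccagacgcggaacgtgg
Tars (chr15:11399646-11399693, minus strand): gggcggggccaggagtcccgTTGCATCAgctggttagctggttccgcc
Yars (chr4:129189886-129189933, plus strand): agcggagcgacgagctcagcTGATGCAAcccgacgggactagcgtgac
Gars (chr6:55037951-55037998, plus strand): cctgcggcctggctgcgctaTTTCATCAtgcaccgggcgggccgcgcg
The start used is not always the edge of the annotated gene, and lies 6064 bases inside its span in Aars and 169 in Yars, but at its edge in Gars, Iars and Tars. Counted from these starts, the match began 112 bases before the start in Aars, 15 before in Tars and 30 before in Gars, and at base 8 after the start in Iars and base 4 in Yars. A match is a description of these letters and not a shown binding site. The 10 genes with no promoter in the table were Cars, Hars, Lars, Mars, Nars, Rars, Vars, Wars, Hars2 and Pars2.

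Of the 5 genes with either form, Aars and Yars were called higher, where 24.3% of all tested genes were higher. Iars, Tars and Gars were not called. Yars was higher in MOEHIGH, with 48.2, 48.3 and 42.3 FPKM at passages 90, 103 and 113, against 39.3, 37.3 and 34.0 FPKM in MOELOW at passages 8, 9 and 10. Its log2 fold change was 0.32 (SE, the standard error, 0.11, adjusted p = 0.031 from limma). The threonine enzyme gene Tars had 89.6, 77.6 and 78.5 FPKM in MOEHIGH, against 108, 98.5 and 86.7 FPKM in MOELOW, and did not pass the test (log2 fold change -0.25, adjusted p = 0.11 from limma). The isoleucine enzyme gene Iars had 68.0, 61.2 and 70.3 FPKM in MOEHIGH, against 68.5, 66.7 and 68.5 FPKM in MOELOW, and the groups overlapped (log2 fold change -0.03, SE 0.10, adjusted p = 0.79 from limma). Gars, the gene of the glycine enzyme, had 199.7, 183 and 184 FPKM in MOEHIGH, against 209, 184.5 and 174 FPKM in MOELOW, so the MOEHIGH values lay within the range of MOELOW. Aars could not be read in the same way. It had 133, 125.5 and 113 FPKM in MOEHIGH, but was listed at 0 at passages 8 and 9 of MOELOW and at 80.6 FPKM at passage 10.

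A 0 in these tables can be a failed estimate: 43 tested genes had a 0 in at least 1 library although a second library of that group reached 5 FPKM. Aars is the gene of the only cytosolic alanine enzyme, and no fold change is given for it. It was called higher (adjusted p = 0.027 from limma), but the call was lost when the library of passage 8, 9, 90, 103 or 113 was left out (adjusted p = 0.053 to 0.096 from limma), and also with no filter on low values (adjusted p = 0.060 from limma). Its lowest MOEHIGH value lay above the 1 MOELOW value that was not listed at 0. No other member was listed at 0 in any library.

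**Figure D1:**
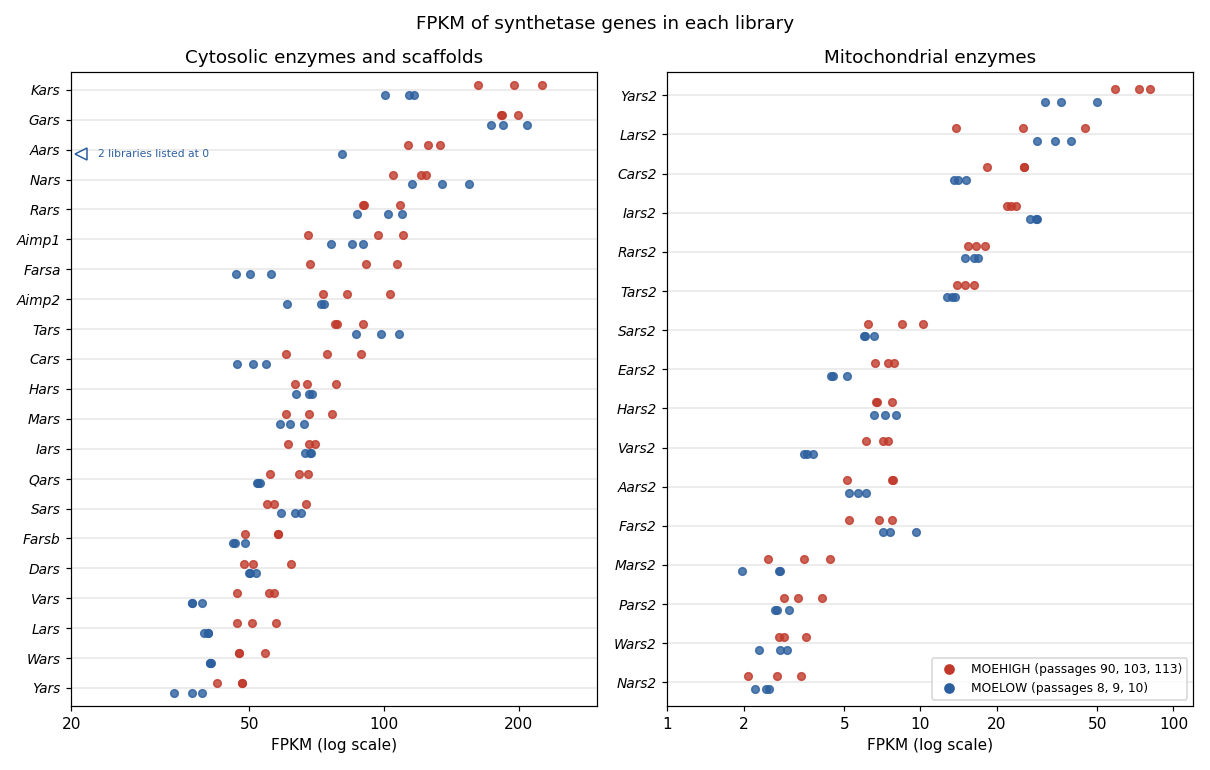
FPKM of each gene in each library on a log axis, with cytosolic enzymes and scaffolds on the left, mitochondrial enzymes on the right, red points for MOEHIGH (3 passages) and blue points for MOELOW (3 passages). Genes are ordered by their MOEHIGH mean, and the open triangle marks the 2 MOELOW libraries in which Aars was listed at 0. Cytosolic enzymes lay between 34.0 and 226 FPKM wherever a value was listed above 0, and the mitochondrial enzymes other than Yars2 and Lars2 lay below 30 FPKM.

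Among the cytosolic enzymes, 8 of 19 were higher in MOEHIGH (42.1%), 0 were lower and the other 11 were not called. Of those called, Aars, Farsa and Kars lie on chromosome 8, where 44.6% of the tested genes that are no members were higher. With the genes of that chromosome left out of the fit, 5 of 16 cytosolic enzymes were higher, where 23.0% of all its genes were. The shares of all 11621 tested genes were 24.3% higher and 32.1% lower, and of the 8325 genes whose mean reached 5 FPKM 27.4% were higher and 28.3% lower. At an unadjusted p under 0.05, 9 cytosolic enzymes were higher and 0 were lower. Without Aars, 7 of 18 remained called higher, with a median log2 fold change of 0.17. Leaving out 1 library moved the count of 8 to 3 without passage 9 and to 4 without passage 8, 10 or 103. Against a 1.5-fold change 0 passed. Over all tested genes the count of 2826 fell to 2281 of 11575 without passage 9 and to 703 against a 1.5-fold change. It was 2212 of 11497, 2258 of 11554 and 2382 of 11666 without passage 8, 10 or 103. The median log2 fold change was 0.21 for the cytosolic enzymes and -0.05 for all tested genes, or 0.11 and -0.07 with chromosome 8 left out. In 10 of the 19 genes all MOEHIGH libraries lay above all MOELOW libraries, as in 28.5% of all tested genes, and in 0 of them below (35.5% of all tested genes). Without Aars this was 9 of 18. With the libraries scaled to equal totals, 5 cytosolic enzymes were higher and 1, Tars, was lower (adjusted p = 0.041 from limma).

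Of the 7 enzymes of the multisynthetase complex that were measured, Kars and Lars were higher (28.6%, where 24.3% of all tested genes were higher). The other 5 did not pass the test, and 0 were lower, where 32.1% of all tested genes were lower. Kars, the lysine enzyme gene, lies on chromosome 8 from 111993439 to 112011354 and had 226, 195 and 163 FPKM in MOEHIGH, against 114, 117 and 101 FPKM in MOELOW. All MOEHIGH libraries lay above all MOELOW libraries, the library of passage 113 being the lowest of its group. Kars averaged 194 ± 31.5 FPKM in MOEHIGH and 110.4 ± 8.49 FPKM in MOELOW (SD, n = 3 passages in each group), with a log2 fold change of 0.80 (SE 0.14, adjusted p = 0.0018 from limma). Lars, the leucine enzyme gene, was also higher, at 50.8, 47.1 and 57.3 FPKM in MOEHIGH against 39.7, 40.4 and 40.4 FPKM in MOELOW (log2 fold change 0.35, SE 0.10, adjusted p = 0.020 from limma). The Lars call was lost at equal totals and on leaving out the MOELOW library of passage 8, 9 or 10. Its log2 fold change was then 0.29 to 0.358 (adjusted p = 0.061 to 0.17 from limma).

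The other 5 genes of the complex had smaller differences. Qars, for glutamine, had 67.8, 64.6 and 55.6 FPKM in MOEHIGH and 52.0, 52.8 and 52.3 FPKM in MOELOW. Its groups did not overlap, but the difference did not pass the test (log2 fold change 0.25, adjusted p = 0.074 from limma) except when passage 113 was left out (adjusted p = 0.0059 from limma). Dars, for aspartate, and Mars, for methionine, had log2 fold changes of 0.08 and 0.13, and Rars, for arginine, of -0.05, with adjusted p from 0.37 to 0.77 from limma. In all 3 the values of the groups overlapped.

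The scaffold genes of the complex were measured in the same libraries. Aimp1 had 110.5, 97.0 and 67.7 FPKM in MOEHIGH, against 89.7, 84.9 and 76.2 FPKM in MOELOW, and the range of MOEHIGH enclosed that of MOELOW (log2 fold change 0.11, SE 0.18, adjusted p = 0.64 from limma). Aimp2 had 103, 82.5 and 72.9 FPKM in MOEHIGH, against 72.5, 73.4 and 60.6 FPKM in MOELOW (log2 fold change 0.31, SE 0.15, adjusted p = 0.11 from limma). Neither scaffold gene passed the test, and both did so when passage 113 was left out (adjusted p = 0.034 for Aimp1 and 0.026 for Aimp2 from limma).

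Outside the complex, 6 of 12 cytosolic enzyme genes were higher and 0 were lower (5 of 11 higher without Aars), where 24.3% of all tested genes were higher and 32.1% lower. Farsa, the alpha subunit gene of the phenylalanine enzyme, lies on chromosome 8 from 84856969 to 84869257 and had 107, 91.1 and 68.3 FPKM in MOEHIGH, against 50.3, 55.9 and 46.6 FPKM in MOELOW. It averaged 88.9 ± 19.6 FPKM in MOEHIGH and 50.95 ± 4.67 FPKM in MOELOW (SD, n = 3 passages in each group), with a log2 fold change of 0.77 (SE 0.17, adjusted p = 0.0054 from limma). The beta subunit gene Farsb, whose product pairs with that of Farsa in the active enzyme, had 57.9, 48.8 and 57.9 FPKM in MOEHIGH, against 46.6, 48.8 and 46.1 FPKM in MOELOW. The groups did not overlap, but the lowest MOEHIGH value and the highest MOELOW value were the same to 3 digits, and the difference did not pass the test (log2 fold change 0.21, SE 0.10, adjusted p = 0.12 from limma). The means of the 2 subunit genes stood at 88.9 and 54.9 FPKM in MOEHIGH and at 50.95 and 47.2 FPKM in MOELOW.

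Cars, the cysteine enzyme gene, had 88.9, 74.8 and 60.5 FPKM in MOEHIGH, against 54.6, 51.1 and 47.0 FPKM in MOELOW, with no overlap. Its log2 fold change was 0.53 (SE 0.15, adjusted p = 0.017 from limma). The call was lost when passage 9, 10 or 103 was left out (log2 fold change 0.475 to 0.534, adjusted p = 0.050 to 0.064 from limma). Vars, the valine enzyme gene, had 56.7, 55.4 and 47.0 FPKM in MOEHIGH and 37.3, 39.3 and 37.3 FPKM in MOELOW (log2 fold change 0.47, SE 0.11, adjusted p = 0.0062 from limma). This call was kept whichever of the 6 libraries was left out. Wars, the tryptophan enzyme gene, had 54.3, 47.4 and 47.5 FPKM in MOEHIGH and 41.1, 40.8 and 40.8 FPKM in MOELOW (log2 fold change 0.27, SE 0.10, adjusted p = 0.041 from limma).

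The calls of Wars and Yars had the highest adjusted p of the cytosolic set. The Wars call was lost at equal totals, with the replicate number as a block, and when passage 8, 9, 10, 90 or 103 was left out. In these fits its log2 fold change was 0.21 to 0.307 (adjusted p = 0.059 to 0.14 from limma). The Yars call was lost at equal totals and when passage 8, 9, 10, 90 or 103 was left out. Its log2 fold change was then 0.257 to 0.365 (adjusted p = 0.052 to 0.12 from limma). Of the 6 that did not pass, Nars, for asparagine, had 121, 105 and 124 FPKM in MOEHIGH and 155, 135 and 116 FPKM in MOELOW (log2 fold change -0.20, adjusted p = 0.23 from limma). Hars, for histidine, and Sars, for serine, had log2 fold changes of 0.05 and -0.07, with adjusted p = 0.71 and 0.59 from limma, and that of Hars turned to -0.01 at equal totals.

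**Figure D2:**
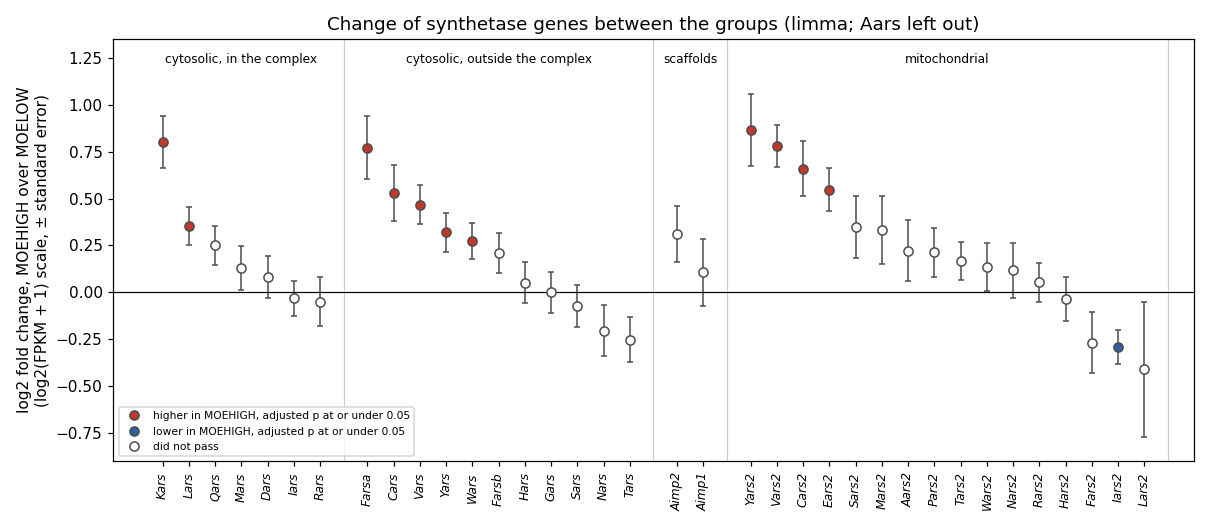
Log2 fold change of MOEHIGH over MOELOW for 36 genes, grouped by compartment and complex, with bars of 1 SE from limma. Filled red points were higher and the filled blue point lower at an adjusted p of 0.05, and open points did not pass the test. Aars is left out because 2 of its MOELOW libraries were listed at 0. Yars2 (0.86), Kars (0.80) and Vars2 (0.78) stood highest, and the longest bar belongs to Lars2.

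Among the mitochondrial enzymes, 4 of 16 were higher in MOEHIGH (25.0%, where 24.3% of all tested genes were higher) and 1 was lower (6.25%, where 32.1% of all tested genes were lower), and the remaining 11 were not called. The median log2 fold change of the 16 was 0.19. Yars2, the tyrosine enzyme gene, lies on chromosome 16 from 16302965 to 16309640 and had 80.4, 73.4 and 58.8 FPKM in MOEHIGH, against 35.9, 49.7 and 31.1 FPKM in MOELOW. It averaged 70.9 ± 11.04 FPKM in MOEHIGH and 38.9 ± 9.69 FPKM in MOELOW (SD, n = 3 passages in each group), with a log2 fold change of 0.86 (SE 0.19, adjusted p = 0.0056 from limma). Its level was the highest of the 16 in the mean of each group.

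Vars2, the mitochondrial valine enzyme gene, lies on chromosome 17 from 35655634 to 35667639 and had 7.45, 7.14 and 6.12 FPKM in MOEHIGH, against 3.75, 3.46 and 3.56 FPKM in MOELOW. Its mean in MOEHIGH was 1.92 times that in MOELOW, the largest ratio among the 36 genes with no value listed at 0, with a log2 fold change of 0.78 (SE 0.11, adjusted p = 0.00066 from limma). Cars2, for cysteine, had 25.8, 25.7 and 18.4 FPKM in MOEHIGH, against 14.0, 13.6 and 15.1 FPKM in MOELOW (log2 fold change 0.66, SE 0.14, adjusted p = 0.0057 from limma). Ears2, for glutamate, had 7.88, 7.45 and 6.60 FPKM in MOEHIGH, against 4.52, 5.12 and 4.42 FPKM in MOELOW (log2 fold change 0.55, SE 0.11, adjusted p = 0.0044 from limma). In all 4 genes every MOEHIGH library lay above every MOELOW library, and each call was kept whichever of the 6 libraries was left out. Of the 16 mitochondrial enzymes, 5 had all MOEHIGH libraries above all MOELOW libraries, where 28.5% of all tested genes did. All MOEHIGH libraries lay below in 1 of the 16, where they did so in 35.5% of all tested genes.

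Iars2, the mitochondrial isoleucine enzyme gene, was the member called lower. It had 22.0, 23.8 and 22.8 FPKM in MOEHIGH, against 28.7, 28.9 and 27.1 FPKM in MOELOW (log2 fold change -0.29, SE 0.09, adjusted p = 0.026 from limma). The groups did not overlap, but the call was lost at equal totals and when passage 8, 9, 10 or 90 was left out. Its log2 fold change was then -0.354 to -0.267 (adjusted p = 0.052 to 0.10 from limma). Lars2, for leucine, had the largest SE of the genes with no value listed at 0, with 25.4, 44.9 and 13.8 FPKM in MOEHIGH, against 39.4, 28.8 and 34.1 FPKM in MOELOW. It did not pass the test (log2 fold change -0.41, SE 0.36, adjusted p = 0.36 from limma) except without the library of passage 103, where the log2 fold change was -0.81 (adjusted p = 0.037 from limma). When passage 113 was left out it was 0.00 (adjusted p = 1.0 from limma).

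The 10 other mitochondrial enzyme genes did not pass the test. Rars2 (for arginine) and Tars2 (for threonine) averaged 16.7 and 15.05 FPKM in MOEHIGH and 16.03 and 13.3 FPKM in MOELOW. Sars2, for serine, had 10.2, 8.42 and 6.22 FPKM in MOEHIGH and 5.97, 6.54 and 6.03 FPKM in MOELOW (log2 fold change 0.35, adjusted p = 0.11 from limma). Sars2 and the alanine enzyme gene Aars2 passed when passage 113 was left out (adjusted p = 0.0055 and 0.011 from limma). Fars2, for phenylalanine, averaged 6.59 FPKM in MOEHIGH and 8.11 FPKM in MOELOW (log2 fold change -0.27, adjusted p = 0.20 from limma), and Hars2, for histidine, 7.07 FPKM in MOEHIGH and 7.26 FPKM in MOELOW. The annotated spans of Hars2 and Hars overlap at their edges on chromosome 18, and whether counting used the strand is not stated in the sources used here. Mars2, Nars2, Pars2 and Wars2, for methionine, asparagine, proline and tryptophan, had means of 2.73 to 3.45 FPKM in MOEHIGH and 2.40 to 2.79 FPKM in MOELOW, with log2 fold changes of 0.12 to 0.33. Of these, Mars2 passed without the library of passage 103 (log2 fold change 0.49, adjusted p = 0.047 from limma).

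Both compartments together took a small part of the summed FPKM. The 18 cytosolic genes other than Aars summed to 1618, 1430 and 1387 FPKM in MOEHIGH, against 1375, 1317 and 1208 FPKM in MOELOW, and the groups did not overlap, although the lowest MOEHIGH value (1387) was close to the highest MOELOW value (1375). As a share of each library's summed FPKM this was 0.214% ± 0.0171 in MOEHIGH and 0.196% ± 0.00423 in MOELOW (SD, n = 3 passages in each group), and here the groups overlapped, with 0.199% at passage 103 of MOEHIGH and 0.201% at passage 8 of MOELOW. The 16 mitochondrial genes summed to 248.6, 253 and 196 FPKM in MOEHIGH and to 193, 196 and 182 FPKM in MOELOW, or 0.0334% ± 0.00155 of the summed FPKM in MOEHIGH and 0.0288% ± 0.000464 in MOELOW. No p is given for these sums, because exact permutation of 3 against 3 libraries (two-sided) cannot go below 0.1.

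A mitochondrial enzyme and the cytosolic enzyme for the same amino acid could be compared in 13 pairs, with alanine left out because of the values listed at 0. Both genes were higher in MOEHIGH in 3 of them (cysteine, valine and tyrosine), 1 of the 2 was called in 4 and neither in 6. Of all tested genes, taken singly, 24.3% were higher and 32.1% were lower. The mitochondrial gene was lower than its cytosolic counterpart in every library in 12 pairs. The exception was tyrosine, where the ratio of Yars2 to Yars was 1.39 to 1.67 in MOEHIGH and 0.913 to 1.33 in MOELOW. For phenylalanine the ratio of Fars2 to Farsa was 0.0721 to 0.0762 in MOEHIGH and 0.128 to 0.191 in MOELOW, the largest difference of a ratio among the 13 pairs (-1.09 on the log2 scale). For threonine, where neither gene was called, the ratio of Tars2 to Tars was 0.178 to 0.193 in MOEHIGH and 0.123 to 0.146 in MOELOW. The ratios of the groups did not overlap in 7 of the 13 pairs. Among all tested genes, taken singly, 28.5% had all MOEHIGH libraries above all MOELOW libraries and 35.5% had all below. No such share was computed for ratios of other genes, and the differences of the ratios were not tested.

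**Figure D3:**
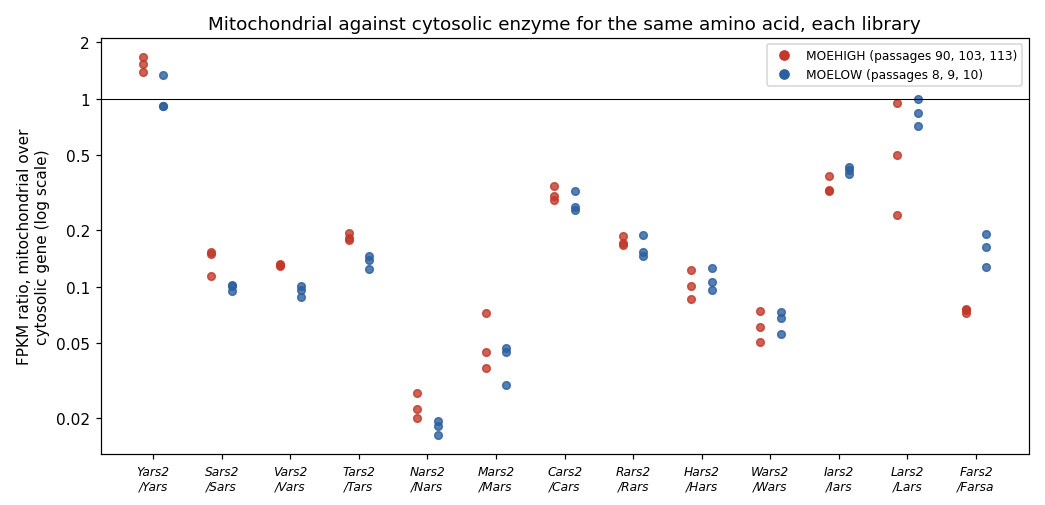
Ratio of the FPKM of the mitochondrial gene to that of the cytosolic gene for the same amino acid, on a log axis, for 13 pairs in each library, with MOEHIGH in red to the left of MOELOW in blue. Phenylalanine is shown against the alpha subunit gene Farsa. Pairs run from the largest positive to the largest negative difference between the groups, and points above the line at 1 occur in tyrosine alone.

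By structural class, 9 of 18 genes of class I enzymes were higher and 1 was lower, and 3 of 17 genes of class II enzymes were higher and 0 lower (2 of 16 higher without Aars), in each case with Aimp1 and Aimp2 left out and where 24.3% of all tested genes were higher. The median log2 fold changes were 0.30 in class I and 0.12 in class II. The difference between the classes was not tested.

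The position of the genes moved with the result. Of the 12 genes called higher, 4 (Aars, Farsa, Kars and Cars2) lie on chromosome 8, and these are all the members on that chromosome. On chromosome 8, 286 of the other 641 tested genes were higher (44.6%) and 117 were lower (18.3%), with a median log2 fold change of 0.29, while the medians of the other chromosomes that hold members were -0.22 to -0.04. Of the 20 nearest tested genes, 11 were higher around Farsa, 8 around Kars, 8 around Cars2 and 10 around Aars, with medians of 0.20 to 0.42. Off chromosome 8, 8 of 33 members were higher (24.2%, where 24.3% of all tested genes were) and 1 was lower (3.03%, where 32.1% were). With the genes of chromosome 8 left out of the fit, 5 of 16 cytosolic and 3 of 15 mitochondrial enzymes were higher, where 23.0% of all genes of that fit were. The median log2 fold change was then 0.11 for the cytosolic enzymes (0.21 with chromosome 8) and 0.17 for the mitochondrial enzymes (0.19 with it). Of the 36 genes other than Aars, 30 had a log2 fold change above the median of their own chromosome, the exceptions being Nars, Rars, Tars, Fars2, Iars2 and Lars2. By definition, as many tested genes of a chromosome lie above its median as below it. These medians include genes of low level. Over all chromosomes the median was -0.05 for all tested genes and 0.01 for those with a mean of at least 5 FPKM. Kars, Farsa and Cars2 were among the 30, and the part of their position in their change was not tested beyond these values.

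**Figure D4:**
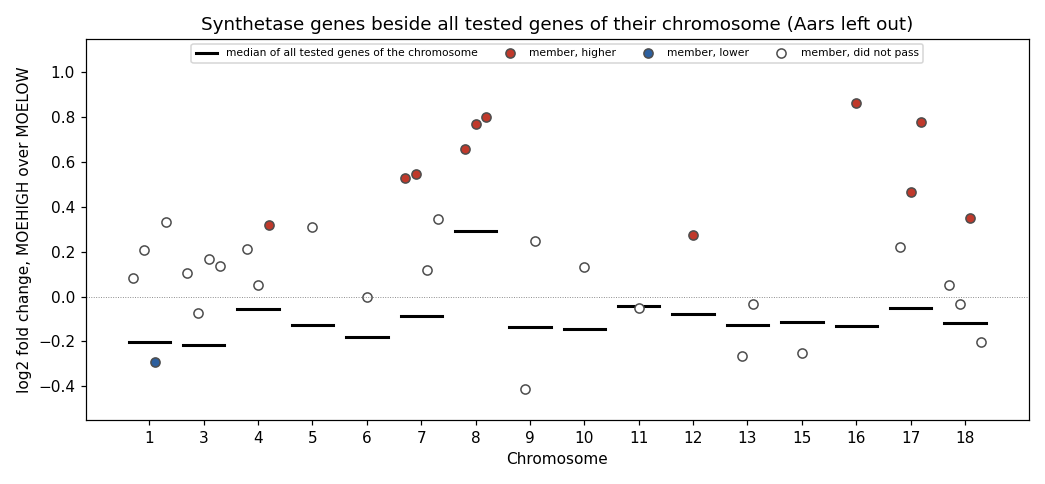
Log2 fold change of MOEHIGH over MOELOW for each gene (points, Aars left out) beside the median of all tested genes on the same chromosome (black lines). The median of chromosome 8 was 0.29, and its 3 plotted genes, Cars2, Farsa and Kars, stood above it at 0.66 to 0.80.

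The MOEHIGH libraries were not alike. Of the 12 genes called higher, 10 were lowest in the library of passage 113 among the 3 MOEHIGH libraries and 10 were highest in that of passage 90, or 9 and 9 of the 11 genes other than Aars. Over the tested genes called higher these shares were 47.6% and 42.6%. The library of passage 113 also had the lowest summed FPKM of the 6 (597161), and its part in these values was not tested. The median log2 fold change stayed positive without that library (0.22 for the cytosolic and 0.20 for the mitochondrial enzymes) and at equal totals (0.15 and 0.14).

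Genes that work beside the synthetases were counted in 4 lists. Of 19 charging partners, whose products proofread, process, modify or export tRNA, amidate or phosphorylate its amino acid, or split the pyrophosphate that charging releases, 7 were higher and 1 was lower (36.8% and 5.26%, beside 24.3% and 32.1% of all tested genes). The count of higher genes was 4 without passage 10 and 11 without passage 113. Over all genes of those fits it was 2258 of 11554 and 3318 of 11662, against 2826 of 11621 in the main fit. Dtd1, which removes D-amino acids from tRNA, averaged 11.1 ± 2.66 FPKM in MOEHIGH and 6.05 ± 1.24 FPKM in MOELOW (log2 fold change 0.78, adjusted p = 0.0089 from limma). Tarsl2, a threonyl-tRNA synthetase-like gene, averaged 11.8 ± 0.886 FPKM in MOEHIGH and 7.25 ± 0.233 FPKM in MOELOW, and Ptrh2, a peptidyl-tRNA hydrolase gene, 14.1 ± 0.978 FPKM in MOEHIGH and 9.49 ± 0.629 FPKM in MOELOW (adjusted p = 0.0013 and 0.0038 from limma). Pstk, the kinase gene of selenocysteine tRNA, was lower, at 16.9 ± 1.87 FPKM in MOEHIGH and 22.9 ± 1.13 FPKM in MOELOW (log2 fold change -0.42, adjusted p = 0.013 from limma). Eef1e1, which encodes another scaffold of the multisynthetase complex, was at 57.2 ± 7.07 FPKM in MOEHIGH and 54.9 ± 5.13 FPKM in MOELOW and did not pass the test, and it was named after its values were seen. All ± values here are SD over 3 passages.

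Of 10 genes of cytosolic elongation and termination, 5 were higher and 0 were lower, with a median log2 fold change of 0.33, beside 24.3% and 32.1% of all tested genes. The count of higher genes was 3 without passage 8 or 10. Over all genes of those fits it was 2212 of 11497 and 2258 of 11554, against 2826 of 11621 in the main fit. The elongation factor subunit gene Eef1g averaged 2154 ± 313 FPKM in MOEHIGH and 984 ± 48.3 FPKM in MOELOW (SD, n = 3 passages in each group), with a log2 fold change of 1.12 (adjusted p = 0.00043 from limma). Eef1d, another subunit of the same exchange factor, averaged 210 ± 30.4 FPKM in MOEHIGH and 136 ± 9.82 FPKM in MOELOW, and Abce1, a ribosome recycling factor gene, 142 ± 19.1 FPKM in MOEHIGH and 93.0 ± 6.18 FPKM in MOELOW (adjusted p = 0.0047 and 0.0039 from limma). Abce1 also lies on chromosome 8. Gspt1, a termination factor gene, was listed at 0 at passage 103 and at 76.8 and 99.25 FPKM in the other MOEHIGH libraries, against 79.0 to 81.1 FPKM in MOELOW.

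Of 14 factors of mitochondrial translation, 7 were higher and 1 was lower (beside 24.3% and 32.1% of all tested genes), with a median log2 fold change of 0.26. Tsfm, an elongation factor gene, averaged 42.65 ± 5.40 FPKM in MOEHIGH and 20.9 ± 0.457 FPKM in MOELOW (log2 fold change 0.99, adjusted p = 0.00022 from limma). Lrpprc, which stabilises mitochondrial mRNA, averaged 83.3 ± 18.3 FPKM in MOEHIGH and 46.7 ± 4.51 FPKM in MOELOW, and the elongation factor gene Gfm1 42.9 ± 1.79 FPKM in MOEHIGH and 25.4 ± 0.938 FPKM in MOELOW (adjusted p = 0.0042 and 0.00031 from limma). Mtrf1, a release factor gene named after its values were seen, was the gene called lower, at 1.34 ± 0.244 FPKM in MOEHIGH and 2.74 ± 0.559 FPKM in MOELOW (adjusted p = 0.0058 from limma). All ± values are SD over 3 passages.

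Of 27 genes named as Atf4 and its targets, none of them a synthetase, 9 were higher and 5 were lower (33.3% and 18.5%, beside 24.3% and 32.1% of all tested genes), with a median log2 fold change of 0.21 and a range from -4.17 to 1.76. Atf4 itself had 248, 256 and 208 FPKM in MOEHIGH, against 223, 185 and 160.0 FPKM in MOELOW, and did not pass the test (log2 fold change 0.33, adjusted p = 0.093 from limma). The transcription factor gene Cebpb averaged 242 ± 78.0 FPKM in MOEHIGH and 69.2 ± 14.9 FPKM in MOELOW, the serine synthesis gene Psat1 264 ± 42.7 FPKM in MOEHIGH and 109 ± 13.8 FPKM in MOELOW, and Slc3a2, a subunit gene of amino acid transporters, 133 ± 8.49 FPKM in MOEHIGH and 71.1 ± 10.9 FPKM in MOELOW. All ± values are SD over 3 passages, and all 3 genes were called higher (adjusted p = 0.00023 to 0.0007 from limma). Nupr1, a chromatin-associated stress protein gene, Stc2, which encodes a secreted glycoprotein, and Vldlr, a lipoprotein receptor gene, were lower, with means of 9.64, 0.928 and 2.23 FPKM in MOEHIGH and 191, 15.05 and 15.5 FPKM in MOELOW (adjusted p = 6.4e-06, 1.3e-06 and 3.5e-05 from limma). Asns, the asparagine synthetase gene, which makes the amino acid and does not charge tRNA, had 90.8, 78.4 and 97.9 FPKM in MOEHIGH, against 89.6, 73.7 and 67.9 FPKM in MOELOW, and was named after its values were seen. Its groups overlapped, and it did not pass the test (adjusted p = 0.23 from limma).

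A second sequence, CGGAAG, a form of the sequence bound by ETS family transcription factors, was searched in the same promoters on both strands because it is common near the starts of housekeeping genes. It was present in a promoter of 15 of 27 genes, against 16.9% of all promoters in the table: 5 of 11 cytosolic, 8 of 14 mitochondrial and both scaffold genes. Of the genes called higher it was in the promoters of Farsa, Kars, Cars2 and Ears2, and it was also in that of Iars2, which was lower. The others with it, Gars, Qars, Sars, Mars2, Nars2, Rars2, Sars2, Wars2, Aimp1 and Aimp2, were not called. Of all tested genes 24.3% were higher and 32.1% lower. CGGAAG was not in the promoters of Aars, Yars, Vars2 and Yars2, which were also called higher. No match overlapped one of TGATGNAA.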

How the data were processed

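RNA of 3 MOEHIGH and 3 MOELOW passages, depleted of ribosomal RNA, was sequenced from strand-specific libraries by the authors. Alignment by the authors used TopHat2 2.0.8b and the mm10 genome. The deposited tables, 1 per library, hold FPKM that the authors obtained from Cufflinks and Cuffdiff (version 2.1.1 for Cuffdiff) with the UCSC annotation. FPKM carry no read counts, so depth is unknown and precision was taken from the spread between passages. The lowest values gave a relative depth within MOELOW only. The heading over the values matched the sample record in 0 of 6 tables, so the passage came from the record. Among 23141 entries, 236 symbols occurred in 577 entries, of which that of highest mean was used.

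The comparison of MOEHIGH with MOELOW on log2 values used limma 3.58.1 under R 4.3.3 (variance trend, no block, Benjamini-Hochberg adjustment over all tested genes), tested on simulated data. Summaries used Python 3.11.15, pandas 2.3.3 and numpy 2.4.6. RefSeq tables of GRCm38.p6, the assembly behind mm10, gave positions for 22579 symbols and the promoters. Members and lists were chosen with earlier results of these data known. Per-library values were given for called members with an absolute log2 fold change of at least 0.5 and a mean of at least 5 FPKM, for the scaffolds and for members listed at 0, with other members added. From each list up to 3 called genes per direction with a mean of at least 5 FPKM were named, by size of change. The alternatives were 2 scalings, the pseudocount at 0.1 or 0.01 in place of 1, the filter removed or raised to 5 FPKM, the replicate block, a test against a 1.5-fold change and leaving out each library. Fits without chromosome 8 and without genes that have a 0 beside 5 FPKM or more in 1 group were added after the data were seen.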

Additional observations from a re-analysis of the deposited data

How the results depend on the processing

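The cytosolic and mitochondrial medians stayed positive in every alternative run. Without chromosome 8 the cytosolic median was 0.11, against 0.21 in the main fit, and the mitochondrial median was 0.17, against 0.19. With the replicate number as a block, 2 mitochondrial translation factors were lower instead of 1, and among the members Wars lost and Aimp2 gained a call (adjusted p = 0.059 and 0.046 from limma). The numbers did not pair the libraries, since the deviations of same-numbered libraries had correlations of -0.0236, -0.147 and 0.123. In the test against a 1.5-fold change, 703 genes were higher and 1586 lower, with 0 cytosolic and 0 mitochondrial enzymes higher and 0 mitochondrial enzymes lower. In that test 0 charging partners were higher and 0 lower, 1 elongation gene was higher, and 1 mitochondrial translation factor was higher and 0 were lower. Of the Atf4 targets, 2 were higher and 4 were lower. At equal totals 5 cytosolic enzymes were higher and 1 lower, 0 mitochondrial enzymes were lower, and the log2 fold changes of Hars and Rars2 turned to -0.013 and -0.006. With a mean of at least 5 FPKM, 2350 genes and 0 mitochondrial translation factors were lower. Without chromosome 8, 5 cytosolic enzymes were higher. The cause of these differences was not tested, apart from the genes that a filter removes and the fold that a test demands. Leaving out 1 library gave 3 to 8 cytosolic enzymes higher (5 without passage 90, 4 without passage 8, 10 or 103, and 3 without passage 9), and 4 to 6 mitochondrial enzymes higher and 0 to 2 lower. It gave 4 to 11 charging partners higher and 0 to 2 lower, 3 to 6 elongation genes higher, and 1 to 3 mitochondrial translation factors lower. Over all genes, leaving out 1 library gave 2212 to 3318 higher and 3030 to 4378 lower, against 2826 and 3734 in the main fit. Log2 fold changes that turned sign on leaving out 1 library ran from -0.021 to 0.15 in Dars, -0.059 to 0.074 in Gars, -0.034 to 0.117 in Hars, -0.073 to 0.026 in Iars, -0.143 to 0.023 in Rars, -0.097 to 0.028 in Hars2, -0.006 to 0.247 in Nars2, 0.00 to 0.108 in Rars2 and -0.04 to 0.308 in Aimp1. Of 203 alternative values of the 13 called members, 159 kept the call, 44 lost it and 0 turned. Farsa, Kars, Vars, Cars2, Ears2, Vars2 and Yars2 lost it in the test against a 1.5-fold change and in no other alternative that included them.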
